A study of Mus musculus with 3 samples.

Results

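Tumour cells cultured in Matrigel were compared between day 3 and day 0 of culture. The cells were those annotated as Matrigel on either day with at least 5000 UMIs (unique molecular identifiers, each marking 1 captured transcript) and at least 1 UMI of Epcam, an epithelial adhesion molecule. This left 2047 of 2556 Matrigel cells of those days, 656 on day 3 and 1391 on day 0, out of 7620 cells in the whole series. Mice 1 to 4 gave 46, 147, 104 and 359 cells on day 3, against 335, 297, 357 and 402 cells on day 0. The UMIs of each mouse and day were summed, which gave 4 sums a day. Every mouse contributed to both days, and the mouse is the replicate. A sum over cells does not tell a change in each cell from a change in the mix of cells.

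The donors were FVB mice of the C3(1)-Tag line aged 25 to 30 weeks with a primary tumour of 20 mm. In this line the C3(1) promoter drives a viral large T antigen in mammary epithelium, and all 4 mice carry it. Clusters of freshly isolated tumour cells had spent 3 days in Matrigel on day 3 and 12 h in Matrigel on day 0, in serum-free DMEM/F12 with ITS supplement and 2.5 nM FGF2 on both days. The labels also give an incubation with 10 mM EDTA for 30 min on both days. Cells of the same tumours in collagen I, and 4T1 cells grown on plastic in RPMI-1640 with serum, were barcoded by condition and pooled with the Matrigel cells of each day. The 4T1 line is an established mouse mammary carcinoma line and was not in Matrigel. Each day was 1 pool and 1 library, so day, library and labelled batch cannot be told apart from within the Matrigel cells. The 4T1 cells of the same pools show what differed between the pools in cells of another history. They had 1 sum per pool and no replicate. A change of the 4T1 culture itself between the days cannot be told apart from a difference between the pools. The annotation's earliest day is written D1, and reading it as day 0 is an inference.

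Matrigel is a basement membrane extract rich in laminin, collagen IV and entactin. Mammary epithelium touches such a matrix at its basal side, and laminin signals through integrins to support polarity, survival and differentiated gene expression. Isolation of tumour tissue, dissociation and plating are known to induce immediate early, heat shock and oxidative stress genes, which decay once the cause has passed. Cells that resume growth need membrane lipids, made by enzymes under the sterol-sensing SREBP transcription factors, and mitochondrial energy.

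Kept cells were deeper on day 3, with a median per mouse of 36980.5 to 49470 UMIs on day 3 and 14344 to 26195 UMIs on day 0. The sums held 1865714 to 15214421 UMIs on day 3 and 6653976 to 9019906 on day 0. The cell rule kept 85.2% to 97.2% of a mouse's cells on day 3 and 61.9% to 83.8% on day 0. The median mitochondrial share of a mouse's cells was 2.46% to 3.96% on day 3 and 1.32% to 2.91% on day 0. In 4T1 cells the median was 69996 UMIs in the day 3 pool (192 cells) and 83628 UMIs in the day 0 pool (98 cells). The 12 epithelial markers summed to 5179 to 6955 UMIs per 1000000 on day 3 and 7229 to 8868 on day 0, and all 12 passed the filter on low counts. Among kept Matrigel cells, 1 cell on day 3 and 21 cells on day 0 correlated better with the 4T1 profile of their pool than with the mean of their own group. The day 3 and day 0 libraries shared 7 cell barcodes.

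Between the days, 2423 of 12424 genes tested rose on day 3 (19.5%) and 2251 fell (18.1%), so 37.6% were called in either direction (edgeR quasi-likelihood test with Benjamini-Hochberg adjustment, adjusted p under 0.05). Of the called genes, 4505 had the same sign in all 4 mice. A change of at least 2-fold was seen in 1259 genes that rose and 762 that fell. With the mouse as a block, 3460 genes rose (27.8%) and 3399 fell (27.4%). The median log2 fold change over all genes was 0.01, and the gene lists are set against it. The TMM scaling of the sums puts this median near 0, so it does not speak to RNA per cell. Without mouse 2 the counts were 1597 and 1437. Leaving out each mouse gave 1597 to 2360 genes higher and 1437 to 2414 lower.

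**Figure D1:**
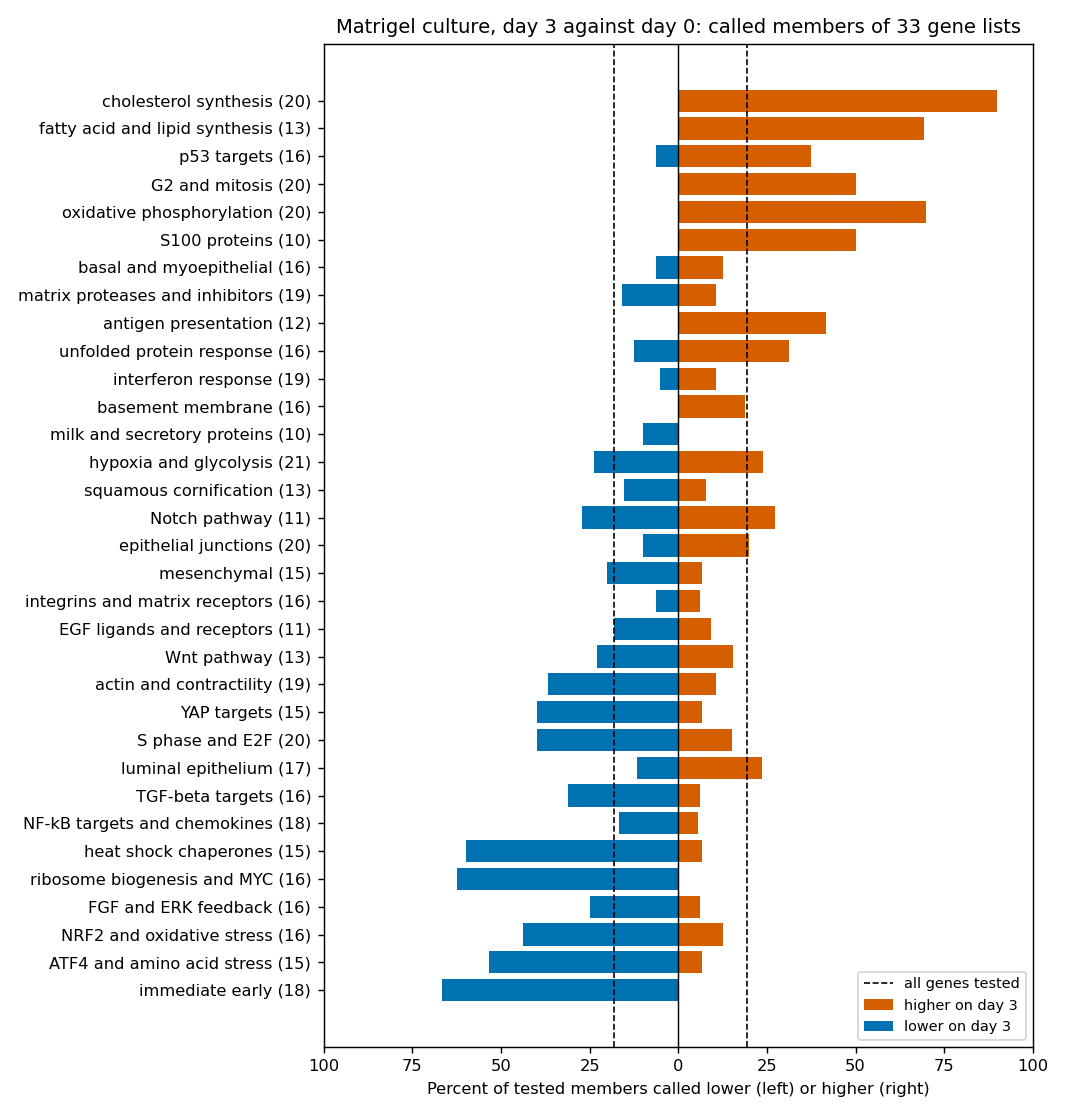
Share of each gene list's tested members (number in parentheses) called higher (right, orange) or lower (left, blue) on day 3 than on day 0 in Matrigel cultures, ordered by the list's median log2 fold change. Dashed lines mark the share of all genes tested, 19.5% higher and 18.1% lower. Cholesterol synthesis and oxidative phosphorylation reach farthest to the right, and immediate early genes farthest to the left.

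The 4T1 cells show which genes also differed between the pools in cells outside the gel. In them 589 of 12424 genes differed by a log2 change past 1 between the day 3 and day 0 pools (4.74%, 1.12% upward and 3.62% downward), on log2 of the ratio of CPM plus 5. CPM are the UMIs of a gene per 1000000 UMIs of a sum, scaled by TMM for the mouse sums. Of the genes that rose in Matrigel, 57 were also past 1 upward in 4T1 cells and 115 were past 1 downward. Of those that fell in Matrigel, 99 were past 1 downward in 4T1 cells and 24 upward. A few of the strongest Matrigel changes were thus seen, in the same direction, in a line that was not in the gel. Nme2, a nucleoside diphosphate kinase, had 512, 519, 701 and 376 CPM on day 3, against 10.7, 10.8, 15.7 and 5.50 CPM on day 0, with a log2 fold change of 5.62 in Matrigel (edgeR adjusted p = 1.00e-08) and 4.88 in 4T1 cells. The same direction was seen for Eno1b (5.10 in Matrigel, 2.97 in 4T1), Grcc10 (4.38 and 2.81) and Bloc1s1 (4.44 and 2.37), and downward for Cdk2ap1 (-3.08 and -2.64), Rnaset2a (-2.88 and -1.73) and Wdr74 (-3.58 and -1.83). Nme2, Eno1b and Rnaset2a have near-identical copies or overlapping neighbours, so their counts are uncertain. The genes just listed differed in the same direction between the pools in 4T1 cells. How much of the Matrigel difference is the pool's was not tested.

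**Figure D2:**
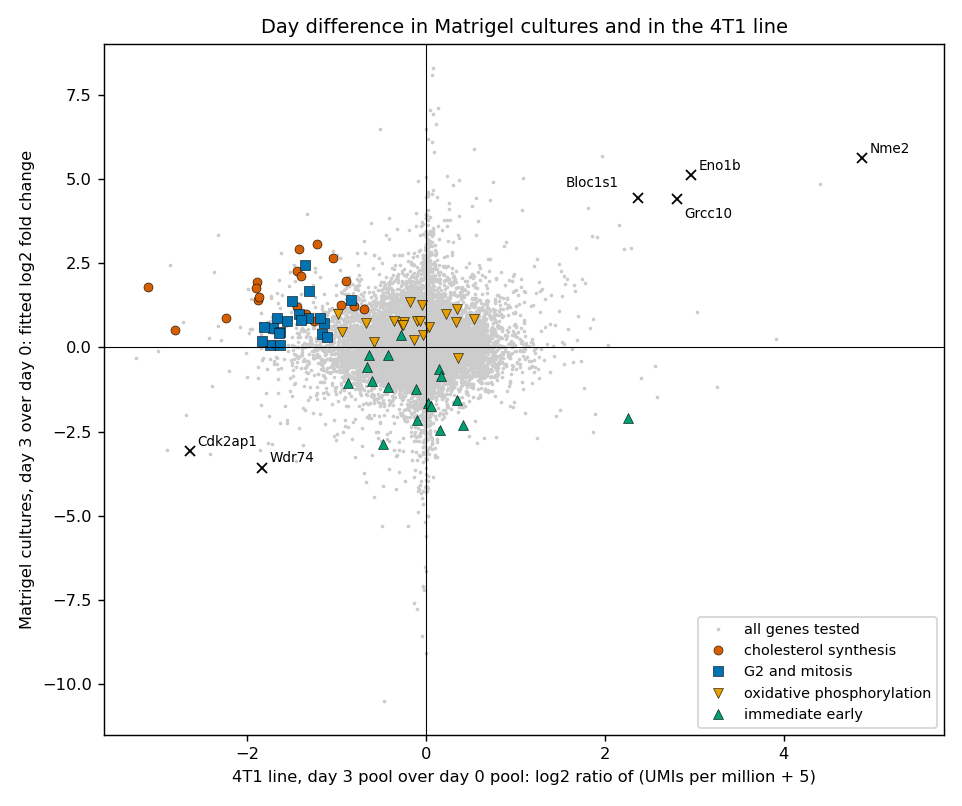
Fitted log2 fold change of day 3 over day 0 in Matrigel cultures (vertical axis, 4 mice a day) against the log2 ratio of CPM plus 5 of the day 3 pool over the day 0 pool in the 4T1 line (horizontal axis, 1 sum a pool), 1 point per gene. Genes at the upper right such as Nme2 and Eno1b were higher on day 3 in both, while cholesterol and mitosis genes lie at the upper left.

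Cholesterol synthesis rose almost as a whole. Of 20 measured members, 18 were higher on day 3 and 0 were lower (90%, where 19.5% of all genes rose), with a median log2 fold change of 1.44 against 0.01 over all genes. The count stayed between 16 and 18 when each mouse was left out, and it was 17 with every cell thinned to 5000 UMIs. In 4T1 cells the same list went the other way between the pools, with a median log2 change of -1.44 and 16 members past 1 downward. Mvk, mevalonate kinase (chr5, gene model 114444269-114460591 on GRCm38), had 49.4, 44.5, 76.8 and 81.7 CPM on day 3, against 9.45, 6.65, 7.11 and 7.11 CPM on day 0. All mice were higher on day 3 and the days did not overlap (log2 fold change 3.06 ± 0.22, SE, edgeR adjusted p = 1.27e-07). Fdps, which makes farnesyl diphosphate, had 607, 445, 829.2 and 631 CPM on day 3, against 81.4, 87.0, 87.4 and 76.6 CPM on day 0. It was about as uniform between mice, and again the days were far apart (log2 fold change 2.92 ± 0.18, SE, edgeR adjusted p = 3.16e-08). Mvd, the decarboxylase of the pathway, had 50.6, 32.8, 61.7 and 84.9 CPM on day 3, against 8.82, 9.97, 9.44 and 8.99 CPM on day 0, without overlap (log2 fold change 2.64 ± 0.24, SE, edgeR adjusted p = 1.62e-06).

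Later steps of the pathway moved too. Nsdhl, a sterol dehydrogenase, had 55.3, 41.0, 89.6 and 78.9 CPM on day 3, against 14.2, 12.1, 17.2 and 11.9 CPM on day 0, and no day 0 mouse reached a day 3 mouse (log2 fold change 2.26 ± 0.22, SE, edgeR adjusted p = 2.52e-06). Lss, lanosterol synthase, had a fitted log2 change of 1.98 (edgeR adjusted p = 3.74e-05) and Cyp51 of 1.95. Hmgcs1, an enzyme at the entry of the pathway, rose by 1.41 (edgeR adjusted p = 4.31e-04). Among other members, the sterol carrier gene Stard4 rose by 2.10 (edgeR adjusted p = 7.89e-06). The transcription factor gene Srebf2 rose by 0.77 and was not called without mouse 1 (0.85, adjusted p = 0.0869), mouse 3 (0.61, adjusted p = 0.200) or mouse 4 (0.69, adjusted p = 0.122). Insig1, the sterol-dependent brake on SREBP, had 51.1, 35.2, 81.2 and 77.8 CPM on day 3, against 40.6, 43.5, 34.7 and 53.3 CPM on day 0, with a log2 fold change of 0.52 (adjusted p = 0.129). Dhcr7 was at 0.07 (adjusted p = 0.761). These were the measured members that did not pass.

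The promoters of these genes share a sequence feature that the choice of the list did not use. The pentamer CCAAT, known as the binding core of the factor NF-Y, stood on either strand (as CCAAT or ATTGG) in the 250 bases before the start of all 13 list members found in the RefSeq promoter table. It stood in 33.8% of all 32851 promoters of that table. Counted per gene, with a match in any of its promoters, it stood in 40.6% of the 9577 genes tested. List counts are per gene too, so 40.6% is their background. The list of mitosis genes had it in 15 of 16 genes, the immediate early list in 6 of 14 and the NRF2 list in 4 of 13. The promoters below are printed to show its number and spacing in 3 cholesterol and 2 mitosis genes, with CCAAT or ATTGG in capitals, 5′ to 3′ in the gene's direction, from RefSeq on GRCm38.p6: Mvk (chr5:114444019-114444268, plus strand), Hmgcs1 (chr13:119690101-119690350, plus strand), Mvd (chr8:122443423-122443672, minus strand), the mitotic cyclin gene Ccnb2 (chr9:70421555-70421804, minus strand) and the mitotic kinase gene Plk1 (chr7:122159185-122159434, plus strand).
Mvk: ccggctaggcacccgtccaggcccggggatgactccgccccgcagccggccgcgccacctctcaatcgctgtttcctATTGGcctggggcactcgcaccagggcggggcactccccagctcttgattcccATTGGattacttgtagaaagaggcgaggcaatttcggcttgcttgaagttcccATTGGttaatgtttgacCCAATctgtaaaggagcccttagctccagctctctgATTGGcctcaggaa
Hmgcs1: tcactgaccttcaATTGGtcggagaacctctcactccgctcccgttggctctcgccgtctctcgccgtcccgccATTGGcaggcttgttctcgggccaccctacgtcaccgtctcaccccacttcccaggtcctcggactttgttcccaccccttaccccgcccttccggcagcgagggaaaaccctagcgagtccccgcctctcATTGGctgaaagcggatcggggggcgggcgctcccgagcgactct
Mvd: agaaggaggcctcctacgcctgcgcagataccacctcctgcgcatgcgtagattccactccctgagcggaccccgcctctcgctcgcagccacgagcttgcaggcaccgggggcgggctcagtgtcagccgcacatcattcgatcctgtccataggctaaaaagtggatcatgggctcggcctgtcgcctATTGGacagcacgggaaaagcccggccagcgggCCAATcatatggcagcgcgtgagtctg
Ccnb2: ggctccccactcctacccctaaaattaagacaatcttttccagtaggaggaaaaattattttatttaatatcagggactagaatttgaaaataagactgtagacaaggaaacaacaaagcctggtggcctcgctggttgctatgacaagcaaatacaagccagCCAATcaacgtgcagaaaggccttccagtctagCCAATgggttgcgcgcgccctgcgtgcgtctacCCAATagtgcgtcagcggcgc
Plk1: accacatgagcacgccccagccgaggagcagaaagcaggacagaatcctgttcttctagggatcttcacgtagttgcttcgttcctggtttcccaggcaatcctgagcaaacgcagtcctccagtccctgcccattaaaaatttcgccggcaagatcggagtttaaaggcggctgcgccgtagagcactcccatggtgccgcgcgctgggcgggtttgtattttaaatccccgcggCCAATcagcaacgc
The Mvk window holds 5 such pentamers and the Hmgcs1 and Ccnb2 windows 3 each, that of Mvd 2 and that of Plk1 1. A sterol element core searched as TCACNCCAC or its complement GTGGNGTGA was in 1 of the 13 cholesterol genes, Hmgcs1. It was in 1.22% of the genes tested and 1.05% of all promoters. A match is a description of letters, and binding was not measured.

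Fatty acid and lipid synthesis moved with the sterol genes: 9 of 13 measured members rose and 0 fell, with a median log2 fold change of 1.30, and in 4T1 cells the median was -0.96. Scd1, the stearoyl-CoA desaturase that makes oleate, had 158, 68.6, 158 and 57.5 CPM on day 3, against 8.39, 7.76, 5.36 and 6.84 CPM on day 0, with no overlap (log2 fold change 3.95 ± 0.33, SE, edgeR adjusted p = 6.94e-07). Scd2, another desaturase, had a fitted log2 change of 3.33 (edgeR adjusted p = 1.86e-05). Elovl6, a fatty acid elongase, had 89.4, 42.1, 78.0 and 86.0 CPM on day 3, against 17.2, 19.4, 12.6 and 13.2 CPM on day 0, with no overlap (log2 fold change 2.24 ± 0.25, SE, edgeR adjusted p = 9.87e-06). Fads2 and Fads1, desaturases of polyunsaturated fatty acids, changed by 2.80 and 1.61, and Lpin1, a phosphatidate phosphatase, by 2.29. Fasn, fatty acid synthase, rose by 0.74 (edgeR adjusted p = 0.0102) and was not called without mouse 3 (0.64, adjusted p = 0.0576) or mouse 4 (0.55, adjusted p = 0.0528). Me1, malic enzyme, had a fitted log2 change of -0.35 (adjusted p = 0.383) and Acly, ATP citrate lyase, of 0.41 (adjusted p = 0.0660). Neither passed.

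Nuclear genes of oxidative phosphorylation rose by smaller amounts. Of 20 measured members 14 were higher and 0 lower (70%), with a median log2 fold change of 0.75, and in 4T1 cells the median was -0.12. Cox6c, a subunit of cytochrome c oxidase, had 1056, 945, 1176 and 709.6 CPM on day 3, against 446, 393, 434 and 270.2 CPM on day 0, and the lowest day 3 mouse was above the highest day 0 mouse (log2 fold change 1.33 ± 0.19, SE, edgeR adjusted p = 6.85e-05). Ndufb8 of complex I had 494, 458, 444 and 393 CPM on day 3, against 226, 210, 212 and 159 CPM on day 0, with no overlap (log2 fold change 1.147 ± 0.12, SE, edgeR adjusted p = 5.02e-06). Of the other complexes, Sdhb of complex II rose by 0.78, Uqcrh of complex III by 0.997 and Atp5a1 of ATP synthase by 0.67. The count was 12 to 16 when each mouse was left out. The median mitochondrial share of a cell's UMIs, which counts transcripts of the mitochondrial genome, was higher on day 3 in each mouse as well, as given above. The glycolysis and hypoxia list had 5 members higher and 5 lower of 21, near the background in each direction, and 3 and 3 without mouse 1. In 4T1 cells its median was -1.20, with 17 members past 1 downward. Pkm, pyruvate kinase (0.88), and Eno1, enolase (1.11), were among those that rose. Ldha, lactate dehydrogenase, was called at 0.71 with all mice and was not called when any mouse was left out (adjusted p 0.0593 to 0.210). Vegfa, an angiogenic factor, had 10.6, 21.2, 17.6 and 9.54 CPM on day 3, against 64.5, 83.2, 81.1 and 55.96 CPM on day 0, and Hk2, the inducible hexokinase, 2.94, 6.71, 4.80 and 2.65 CPM on day 3, against 30.1, 17.6, 23.3 and 12.2 CPM on day 0. Both fell in all mice without overlap (log2 fold change -2.26 ± 0.30, SE, edgeR adjusted p = 3.68e-05 for Vegfa, and log2 fold change -2.27, edgeR adjusted p = 1.95e-04 for Hk2). In 4T1 cells Vegfa was at -0.51 and Hk2 at -1.13.

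**Figure D3:**
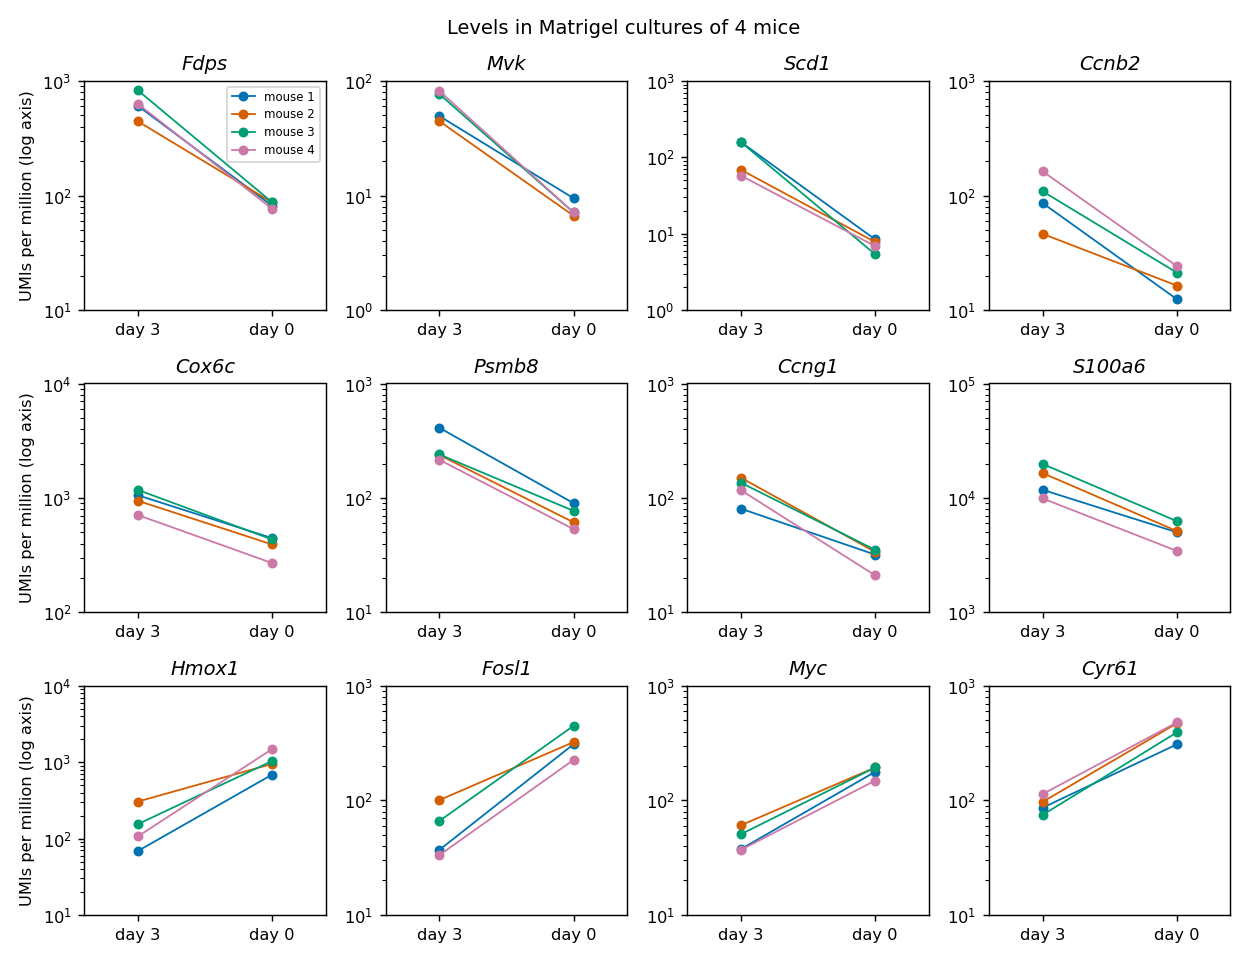
Level of 12 genes in the Matrigel cultures of mice 1 to 4 (coloured points joined by mouse) on day 3 (left) and day 0 (right) in TMM-scaled CPM on a log axis. The upper 8 genes are higher on day 3 in every mouse, as for Fdps at 445 to 829.2 against 76.6 to 87.4, and Hmox1, Fosl1, Myc and Cyr61 are lower on day 3 in every mouse.

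Genes of G2 and mitosis were higher on day 3, and genes of early S phase were more often called lower than higher. Of 20 mitosis members 10 rose and 0 fell (50%), with a median log2 fold change of 0.76, while 4T1 cells had a median of -1.46 and 19 members past 1 downward. The count rests on the mice with the fewest and the most day 3 cells: it was 2 without mouse 1, 3 without mouse 4, and 10 and 11 without mice 2 and 3. With the mouse as a block it was 14, and with the 8 Matrigel sums fitted alone it was 4. Ccnb2, a B-type cyclin that activates Cdk1, had 85.8, 46.2, 109 and 163 CPM on day 3, against 12.4, 16.3, 21.2 and 24.2 CPM on day 0. The lowest day 3 mouse was above the highest day 0 mouse (log2 fold change 2.45 ± 0.36, SE, edgeR adjusted p = 8.83e-05). Plk1, the polo-like kinase of mitotic entry, had 61.1, 16.8, 58.8 and 38.5 CPM on day 3, against 9.77, 13.2, 22.9 and 7.78 CPM on day 0, and mouse 2 on day 3 lay among the day 0 mice (log2 fold change 1.68 ± 0.35, SE, edgeR adjusted p = 0.00164). Hmmr, a spindle-associated receptor, rose by 1.38 (edgeR adjusted p = 0.00510; 1.17, adjusted p = 0.0706, without mouse 1). Ube2c, which loads ubiquitin for the anaphase-promoting complex, rose by 1.399 (edgeR adjusted p = 0.0160) and was not called without mouse 1 (1.13, adjusted p = 0.129) or mouse 4 (1.23, adjusted p = 0.0721). Cdk1 itself had a fitted log2 change of 0.41 (adjusted p = 0.257) and Top2a of 0.20 (adjusted p = 0.490), and neither passed.

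Mki67, the proliferation antigen Ki-67, had 159.9, 89.1, 176 and 181 CPM on day 3, against 65.3, 84.3, 118 and 64.5 CPM on day 0. Mouse 2 on day 3 lay within the day 0 range, and the log2 fold change was 0.87 (edgeR adjusted p = 0.00717). The call was lost without mouse 1 (0.74, adjusted p = 0.0653) and without mouse 4 (0.64, adjusted p = 0.0747). Since cells were deeper on day 3, shares of cells were taken after thinning each cell to 5000 UMIs. A Mki67 UMI was found in 45.7%, 23.8%, 42.3% and 41.2% of cells on day 3, against 20.3%, 16.8%, 31.1% and 17.9% on day 0. The share was higher on day 3 in 4 of 4 mice, and mouse 3 on day 0 was above mouse 2 on day 3. The means were 38.3% ± 9.81 on day 3 and 21.5% ± 6.54 on day 0 (SD, n = 4 each, exact permutation p = 0.0571 two-sided, paired exact p = 0.125, 0.367 adjusted over 11 markers). The smallest p possible was 0.0286 unpaired and 0.125 paired. In 4T1 cells the share was 16.7% in the day 3 pool and 53.1% in the day 0 pool. Without thinning the Matrigel shares were 49.7% to 80.8% on day 3 and 33.8% to 56.3% on day 0. In 137 cells with macrophage markers, which should divide little, 4.38% had a Mki67 UMI (exact 95% interval 1.62% to 9.29%, counting error only, median depth before thinning 14963 UMIs). Of the 11 markers whose shares were compared, 0 passed, and all but Cdh1, Fn1 and Twist1 had a higher mean share on day 3.

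The S phase list had 3 members higher and 8 lower of 20 (5 and 12 with the mouse as a block), with a median log2 fold change of -0.38. The shares were 15% and 40%, beside 19.5% and 18.1% of all genes. Without mouse 1, 2 were higher and 5 lower, and Cdc6, Mcm2 and Mcm6 were not called (adjusted p = 0.0526, 0.106 and 0.106). Cdt1, a licensing factor of replication origins, fell by 0.98 on the log2 scale, and the helicase gene Mcm4 fell by 0.62. Ccne1, cyclin E1, had 41.7, 31.9, 42.8 and 43.4 CPM on day 3, against 24.2, 18.8, 20.1 and 19.2 CPM on day 0, and Tyms, thymidylate synthase, rose by 0.79. In 4T1 cells the median of the S phase list was -1.24. Targets of p53 had 6 members higher and 1 lower of 16 (37.5% and 6.25%), with a median of 0.76. The T antigen of this line is known to bind p53. Ccng1, cyclin G1, had 80.5, 150, 136 and 117 CPM on day 3, against 32.0, 33.8, 35.2 and 21.1 CPM on day 0, with no overlap (log2 fold change 1.99 ± 0.23, SE, edgeR adjusted p = 1.11e-05). Zmat3, an RNA-binding protein, rose by 1.93, Phlda3, an inhibitor of AKT, by 1.32 and the apoptosis gene Bax by 1.13. Cdkn1a, the p21 inhibitor, had a fitted log2 change of 0.12 (adjusted p = 0.812) and Mdm2 of 0.42 (adjusted p = 0.436). Plk2, a polo-like kinase listed as a p53 target and also induced by stimuli, had 149, 196, 186 and 209 CPM on day 3, against 444, 516, 449 and 677 CPM on day 0 and fell in all mice (log2 fold change -1.49 ± 0.19, SE, edgeR adjusted p = 3.11e-05).

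Genes induced by acute stimuli and stress were lower on day 3. Of 18 immediate early genes 12 fell and 0 rose (66.7%, where 18.1% of all genes fell), with a median log2 fold change of -1.20 and a 4T1 median of -0.11. Between 8 and 12 fell when each mouse was left out. Fosl1, a subunit of the AP-1 factor, had 37.0, 101, 66.3 and 33.4 CPM on day 3, against 310.2, 324, 449 and 226 CPM on day 0, with no overlap (log2 fold change -2.45 ± 0.39, SE, edgeR adjusted p = 1.73e-04). Dusp1, a phosphatase that switches off stress kinases, had 18.8, 20.5, 12.3 and 11.3 CPM on day 3, against 97.5, 112, 135 and 108 CPM on day 0, and the days were well apart in each mouse (log2 fold change -2.88 ± 0.32, SE, edgeR adjusted p = 7.54e-06). Klf6, a zinc finger factor, had 86.4, 221, 89.2 and 173 CPM on day 3, against 364, 484, 332 and 736 CPM on day 0, without overlap (log2 fold change -1.74 ± 0.30, SE, edgeR adjusted p = 3.29e-04). Atf3, a stress-induced repressor, fell by 2.11 on the log2 scale (edgeR adjusted p = 1.54e-06), whereas in 4T1 cells it was 2.25 higher in the day 3 pool. Fos, the founding member, had 92.9, 50.7, 98.3 and 18.5 CPM on day 3, against 68.9, 112, 139 and 78.5 CPM on day 0, with a log2 fold change of -0.64 (adjusted p = 0.3002) that did not pass.

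The oxidative stress list, targets of the factor NRF2, had 7 members lower and 2 higher of 16, with a median of -0.67 and a 4T1 median of 0.02. The shares were 43.75% and 12.5%, beside 18.1% and 19.5% of all genes. Hmox1, heme oxygenase 1 (chr8, gene model 75093621-75100589 on GRCm38), had 68.8, 306, 155 and 107 CPM on day 3, against 688, 952, 1039 and 1487 CPM on day 0. It fell in all mice, most in mouse 4, with no overlap (log2 fold change -2.70 ± 0.39, SE, edgeR adjusted p = 8.83e-05). Sqstm1, the autophagy receptor p62, had 77.6, 157, 102 and 56.8 CPM on day 3, against 357, 406, 467 and 309 CPM on day 0 (log2 fold change -1.97 ± 0.29, SE, edgeR adjusted p = 1.11e-04). Osgin1, a growth inhibitor induced by oxidative stress, had 4.70, 6.34, 3.89 and 7.35 CPM on day 3, against 25.6, 17.2, 28.7 and 47.2 CPM on day 0 (log2 fold change -2.36 ± 0.37, SE, edgeR adjusted p = 1.77e-04). Gclc and Gclm, the subunits of the enzyme that limits glutathione synthesis, fell by 1.10 and 0.97 on the log2 scale, and Srxn1, sulfiredoxin, by 1.77. The members that rose were the metallothioneins. Mt1 had 1906, 1051, 1232 and 1189 CPM on day 3, against 715, 463, 463 and 515 CPM on day 0, with no overlap (log2 fold change 1.32 ± 0.21, SE, edgeR adjusted p = 1.77e-04), and Mt2 rose by 0.78 and was not called without mouse 1 (0.67, adjusted p = 0.0995), mouse 2 (0.92, adjusted p = 0.0706) or mouse 4 (0.76, adjusted p = 0.0947). Nqo1, the quinone reductase often used as a marker of the pathway, had 35.9, 93.6, 75.2 and 29.3 CPM on day 3, against 111, 76.3, 114 and 71.9 CPM on day 0 and did not pass (log2 fold change -0.67, adjusted p = 0.205; 0.0111 with the mouse as a block).

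Heat shock chaperones had 9 members lower and 1 higher of 15 (60% and 6.67%), with a median of -0.54. Hspa1a, an inducible Hsp70 gene with a near-identical copy in Hspa1b, had 19.4, 25.2, 19.9 and 13.8 CPM on day 3, against 144, 920.2, 368 and 254 CPM on day 0, and mouse 2 was the highest on day 0 (log2 fold change -4.44 ± 0.77, SE, edgeR adjusted p = 3.72e-04). Hsp90aa1, the inducible Hsp90, had 1221, 1287, 1297 and 1461 CPM on day 3, against 1622, 2039, 2156 and 2306 CPM on day 0 and fell less (log2 fold change -0.63 ± 0.13, SE, edgeR adjusted p = 0.00128). Hspb1, a small heat shock protein, fell by 1.55 on the log2 scale (edgeR adjusted p = 0.00763). The amino acid stress list of the factor ATF4 had 8 members lower and 1 higher of 15 (53.3% and 6.67%), with a median of -0.79. Slc7a5, the large neutral amino acid transporter, had 7.64, 5.41, 5.03 and 6.56 CPM on day 3, against 22.7, 30.8, 22.9 and 35.6 CPM on day 0, with no overlap (log2 fold change -2.21 ± 0.24, SE, edgeR adjusted p = 7.25e-06). Atf4 fell by 0.99 and Ddit3, encoding CHOP, by 1.22. Phgdh, which opens serine synthesis, went the other way with 479.8, 370.4, 447 and 461 CPM on day 3, against 157, 194, 226 and 136 CPM on day 0 (log2 fold change 1.30 ± 0.15, SE, edgeR adjusted p = 1.50e-05). The unfolded protein response list had 5 members higher and 2 lower of 16 (8 and 2 with the mouse as a block). The shares were 31.25% and 12.5%, beside 19.5% and 18.1% of all genes, so the share lower was below that of all genes. Folding factors of the endoplasmic reticulum such as Sdf2l1 (1.64), Pdia6 (0.84) and Calr (0.60) rose, while Hspa5, encoding BiP, fell by 0.64 and Dnajb9 by 2.08 on the log2 scale.

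Ribosome biogenesis genes fell as well, with 10 of 16 lower, 0 higher, a median of -0.62 and a 4T1 median of 0.29. The count was 6 without mouse 1, mouse 2 or mouse 3 and 12 without mouse 4. Myc, the transcription factor that drives many of them, had 37.6, 60.8, 50.8 and 37.1 CPM on day 3, against 178, 194, 194 and 149 CPM on day 0, with no overlap (log2 fold change -1.94 ± 0.17, SE, edgeR adjusted p = 1.20e-06). Nop58, a core protein of nucleolar ribonucleoproteins, had 270.5, 345, 365 and 219 CPM on day 3, against 640.3, 747, 942 and 479 CPM on day 0 (log2 fold change -1.23 ± 0.21, SE, edgeR adjusted p = 3.32e-04). Wdr43 and Rrs1, ribosome assembly factors, fell by 1.23 and 1.02 on the log2 scale. Npm1, nucleophosmin, had a fitted log2 change of -0.27 (adjusted p = 0.361) and did not pass.

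Feedback targets of ERK signalling, which FGF2 in the medium is known to engage, had 4 members lower and 1 higher of 16 (10 and 1 with the block, 7 lower without mouse 4). The share lower was 25%, near the 18.1% of all genes that fell. Spry2, an inhibitor of receptor tyrosine kinase signalling, had 17.6, 48.3, 21.5 and 17.1 CPM on day 3, against 96.3, 140.2, 93.5 and 54.2 CPM on day 0, with no overlap (log2 fold change -1.86 ± 0.40, SE, edgeR adjusted p = 0.00195). Dusp6, the ERK phosphatase, had 42.3, 49.0, 75.2 and 55.2 CPM on day 3, against 123, 125, 136 and 120 CPM on day 0 (log2 fold change -1.18 ± 0.15, SE, edgeR adjusted p = 2.36e-05). Both were also lower in 4T1 cells of the day 3 pool, by log2 changes of -1.35 and -1.30, so for Dusp6 the Matrigel difference less the 4T1 difference was 0.12. Etv4, an ETS factor induced by FGF, rose by 0.79 (edgeR adjusted p = 9.32e-04). Hbegf, a ligand of the EGF receptor, had 86.4, 276, 150 and 167 CPM on day 3, against 411, 573, 469 and 862 CPM on day 0, with no overlap (log2 fold change -1.76 ± 0.28, SE, edgeR adjusted p = 2.05e-04). Erbb3, a receptor of the same family, rose by 1.38 (edgeR adjusted p = 8.08e-05), and Egfr was at -0.01 (adjusted p = 0.984).

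Targets of the mechanosensitive cofactor YAP had 6 members lower and 1 higher of 15 (4 lower without mouse 1, mouse 2 or mouse 3), with a median of -0.36. The shares were 40% and 6.67%, beside 18.1% and 19.5% of all genes. Cyr61, a matricellular protein, had 86.4, 97.1, 74.8 and 114 CPM on day 3, against 309, 471, 393 and 479.8 CPM on day 0, with no overlap (log2 fold change -2.15 ± 0.33, SE, edgeR adjusted p = 1.50e-04). Ctgf, a related protein, had 17.1, 14.5, 2.29 and 9.14 CPM on day 3, against 72.4, 92.5, 64.1 and 138 CPM on day 0 (log2 fold change -3.17 ± 0.41, SE, edgeR adjusted p = 3.31e-05). In 4T1 cells Cyr61 was at -1.56 and Ctgf at -2.42, the same direction as in Matrigel. How much of their Matrigel difference is the pool's was not tested. F3, tissue factor, had 24.1, 39.1, 26.8 and 11.7 CPM on day 3, against 135, 243, 199 and 111 CPM on day 0 and a 4T1 change of -0.50 (log2 fold change -2.77 ± 0.37, SE, edgeR adjusted p = 4.58e-05). EGF ligands and receptors as a list had 1 member higher and 2 lower of 11 (1 lower without mouse 1, mouse 2 or mouse 3). The shares were 9.09% and 18.2%, where 19.5% of all genes rose and 18.1% fell. Of the TGF-beta list 5 of 16 fell (31.25%, 3 without mouse 2), among them the inhibitor Smad7 (-1.005), and 1 rose (6.25%). Actin and contractility genes had 7 members lower and 2 higher of 19 (36.8% and 10.5%). Myl12a, a regulatory light chain of non-muscle myosin, had 424, 519, 448 and 619 CPM on day 3, against 924, 1061, 902 and 1115 CPM on day 0 (log2 fold change -0.99 ± 0.13, SE, edgeR adjusted p = 3.74e-05), and the actin-sequestering gene Tmsb10 rose by 0.87. The count of lower members was 2 without mouse 2, 4 without mouse 1 and 4 with the 8 Matrigel sums fitted alone, and the 4T1 median of this list was -0.53.

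Among proteases and their inhibitors, the urokinase system fell. Plaur, the urokinase receptor, had 44.1, 76.2, 75.5 and 40.3 CPM on day 3, against 369, 354, 578 and 449 CPM on day 0, with no overlap (log2 fold change -2.89 ± 0.34, SE, edgeR adjusted p = 1.38e-05). Its ligand Plau, urokinase, had 9.99, 27.0, 15.3 and 23.0 CPM on day 3, against 46.3, 49.7, 34.4 and 70.3 CPM on day 0 (log2 fold change -1.36 ± 0.30, SE, edgeR adjusted p = 0.00241). In 4T1 cells Plaur was at -1.38 and Plau at -1.79, so the Matrigel value of Plau less that of 4T1 was 0.43, of opposite sign. Over the list 3 of 19 fell and 2 rose (4 and 5 with the block, and 0 rose without mouse 1 or mouse 2). The shares, 15.8% and 10.5%, were below those of all genes. Mmp9 had a fitted log2 change of 2.80 (adjusted p = 0.0646) and Mmp3 of 2.74 (adjusted p = 0.120), and neither passed. Basement membrane genes had 3 of 16 higher and 0 lower (6 and 1 with the block), near the background of 19.5%. Col4a5, a collagen IV chain, had 9.41, 13.4, 8.92 and 15.4 CPM on day 3, against 2.55, 5.12, 2.10 and 4.70 CPM on day 0, with no overlap (log2 fold change 1.74 ± 0.34, SE, edgeR adjusted p = 0.00102). Agrn, agrin, rose by 0.88. Laminin genes such as Lamb3 (-0.16, adjusted p = 0.700) did not pass. Of 16 integrins and matrix receptors 1 rose and 1 fell (6.25% each, below the shares of all genes, and 3 and 5 with the block). They were the integrin gene Itgb5 (0.50), not called when any mouse was left out (adjusted p 0.0503 to 0.219), and the syndecan gene Sdc4 (-0.59), not called without mouse 2 (-0.50, adjusted p = 0.0862).

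The proteasome arm of antigen presentation rose. Psmb8, Psmb9 and Psmb10, the catalytic subunits of the immunoproteasome, and Psme1 and Psme2, its activator, made up all 5 members called higher of 12 (41.7%), with 0 lower. Psmb8 had 409.8, 237, 239.8 and 215 CPM on day 3, against 90.0, 61.2, 77.1 and 53.4 CPM on day 0, with no overlap and mouse 1 highest on both days (log2 fold change 1.96 ± 0.21, SE, edgeR adjusted p = 7.22e-06). Psmb9 had 81.1, 29.8, 36.1 and 33.3 CPM on day 3, against 21.8, 13.7, 20.1 and 14.1 CPM on day 0 (log2 fold change 1.33 ± 0.28, SE, edgeR adjusted p = 0.00157). Psmb10 had 77.0, 50.1, 61.3 and 63.8 CPM on day 3, against 31.4, 25.8, 22.0 and 22.6 CPM on day 0 (log2 fold change 1.30 ± 0.23, SE, edgeR adjusted p = 3.66e-04). For these genes no day 0 mouse reached a day 3 mouse. Psme2 rose by 0.68 and was not called without mouse 1 (0.61, adjusted p = 0.0905), mouse 2 (0.74, adjusted p = 0.0969) or mouse 3 (0.65, adjusted p = 0.130). None of the class I genes passed: B2m was at -0.40 (adjusted p = 0.217), H2-K1 at 0.13 (adjusted p = 0.540) and the peptide transporter Tap1 at 0.23 (adjusted p = 0.439). In 4T1 cells the list had a median of -0.33, with Psme1 at -1.24 and Psmb9 at -1.10.

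The interferon response list had 2 members higher and 1 lower of 19 (10.5% and 5.26%, beside 19.5% and 18.1% of all genes), and 5 and 1 with the mouse as a block. Ifitm3, a membrane protein that restricts virus entry and has near-identical relatives, had 1671, 816, 1460 and 315 CPM on day 3, against 299.6, 217, 181 and 115 CPM on day 0, with no overlap and a wide spread on day 3 (log2 fold change 2.39 ± 0.42, SE, edgeR adjusted p = 4.36e-04). Oas1a, an oligoadenylate synthetase, had 40.6, 42.3, 41.4 and 14.2 CPM on day 3, against 15.9, 10.2, 7.46 and 2.42 CPM on day 0; mouse 4 on day 3 lay below mouse 1 on day 0 (log2 fold change 1.91 ± 0.43, SE, edgeR adjusted p = 0.00269). Rsad2, viperin, had 0, 1.30, 1.37 and 4.57 CPM on day 3, against 63.6, 21.3, 3.26 and 37.6 CPM on day 0, and mouse 3 was low on both days (log2 fold change -3.71 ± 0.90, SE, edgeR adjusted p = 0.00438; -2.96 without mouse 1 and -4.74 without mouse 4). Of the NF-kB list 3 of 18 fell and 1 rose (8 and 2 with the block, and 5 fell without mouse 3). The shares, 16.7% and 5.56%, were below those of all genes. Tnfaip3, the feedback inhibitor A20, had 2.35, 7.27, 8.23 and 8.81 CPM on day 3, against 23.3, 22.9, 55.6 and 25.8 CPM on day 0, with no overlap (log2 fold change -2.15 ± 0.37, SE, edgeR adjusted p = 3.81e-04). Ccl2, a monocyte chemokine, had 353, 94.5, 118 and 23.1 CPM on day 3, against 37.5, 26.3, 2.56 and 39.5 CPM on day 0, with overlap (log2 fold change 2.45 ± 0.90, SE, edgeR adjusted p = 0.0428; 1.78, adjusted p = 0.248, without mouse 1 and 2.61, adjusted p = 0.140, without mouse 2, and 3.03 without mouse 4). Macrophage markers, which were highest in the same mouse on day 3, summed to 781, 377, 11.6 and 9.14 CPM on day 3 and to 266, 125, 112 and 128 CPM on day 0, with 0 of 11 tested members called and none at 0. Their part in the result was not tested.

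Lineage genes changed gene by gene rather than by list. Of 17 luminal genes 4 rose and 2 fell (5 and 6 with the block, 2 and 0 without mouse 1, 3 and 0 without mouse 2, and 4 and 4 without mouse 4). The shares were 23.5% and 11.8%, beside 19.5% and 18.1% of all genes. Those that rose were Cldn3, Prlr, Elf5 and the estrogen receptor gene Esr1 (1.91), which was not called without mouse 1 (1.48, adjusted p = 0.175), mouse 2 (2.23, adjusted p = 0.0805) or mouse 4 (1.59, adjusted p = 0.154). Cldn3, a tight junction claudin, had 338, 356, 229 and 568 CPM on day 3, against 170.3, 147, 79.3 and 204 CPM on day 0, with no overlap (log2 fold change 1.31 ± 0.31, SE, edgeR adjusted p = 0.00388). Prlr, the prolactin receptor, had 113, 16.6, 30.6 and 6.16 CPM on day 3, against 3.82, 2.91, 4.43 and 1.48 CPM on day 0, highest in mouse 1 on day 3 (log2 fold change 3.63 ± 0.73, SE, edgeR adjusted p = 0.00114; 2.57 without mouse 1, adjusted p = 0.0105). Elf5, the alveolar ETS factor downstream of prolactin, had 64.7, 11.2, 38.4 and 1.39 CPM on day 3, against 3.19, 4.57, 2.10 and 0.134 CPM on day 0, and mouse 4 had little on either day (log2 fold change 3.46 ± 0.94, SE, edgeR adjusted p = 0.00916). Elf5 was at 4.18 without mouse 2, and its call was lost without mouse 1 (2.88, adjusted p = 0.0863) and without mouse 3 (3.13, adjusted p = 0.0742). Milk protein genes, which lie downstream of prolactin signalling, had 0 members higher and 1 lower of 10 (2 and 2 with the block), below the shares of all genes. That member was Csn3 (-2.73, edgeR adjusted p = 0.0282; -3.78 without mouse 1), not called without mouse 2 (-2.35, adjusted p = 0.183) or mouse 3 (-2.33, adjusted p = 0.150).

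Of 16 basal genes 2 rose and 1 fell (8 and 2 with the block), and 0 rose without mouse 1 and 5 without mouse 4. The shares, 12.5% and 6.25%, were below those of all genes. Krt5, a basal keratin, had 116, 59.5, 233 and 25.2 CPM on day 3, against 22.2, 15.1, 3.38 and 35.0 CPM on day 0; mouse 4 went the other way (log2 fold change 2.51 ± 0.85, SE, edgeR adjusted p = 0.0298). Its call was lost without mouse 1 (2.57, adjusted p = 0.119), mouse 2 (2.62, adjusted p = 0.0950) or mouse 3 (1.38, adjusted p = 0.0663), and it was 3.31 without mouse 4. Krt14, its partner, had 1839, 962, 1844 and 963 CPM on day 3, against 892, 688, 1024 and 1264 CPM on day 0 and did not pass (log2 fold change 0.53, adjusted p = 0.123). A Krt14 UMI was present in 66.7% to 89.1% of thinned cells on day 3 and 63.3% to 86.3% on day 0. Trp63, the basal master regulator, had a change of 1.25 (adjusted p = 0.213) that passed under the block (adjusted p = 0.0279). For Snai2, a repressor of the epithelial state found in basal cells, it was 2.00 (adjusted p = 0.0848), again called under the block (adjusted p = 0.0128). Krt8, a luminal keratin, had 1184, 1228, 1165 and 492 CPM on day 3, against 1693, 1545, 1153 and 948 CPM on day 0, and changed by -0.39 (adjusted p = 0.364) and was called under the block (adjusted p = 0.0157).

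Of 15 mesenchymal genes 1 rose and 3 fell (3 and 4 with the block, and 1 fell without mouse 2). The shares were 6.67% and 20%, beside 19.5% and 18.1% of all genes. Fn1, fibronectin, had 78.2, 204, 131 and 419 CPM on day 3, against 377, 480, 341 and 539 CPM on day 0, with overlap through mouse 4 (log2 fold change -1.05 ± 0.38, SE, edgeR adjusted p = 0.0417). Its call was lost without mouse 1, 2 or 3, with adjusted p from 0.122 to 0.169 and log2 fold changes from -1.03 to -0.85, and mouse 4 changed least. Postn, periostin, had 2.35, 0.932, 0.914 and 1.26 CPM on day 3, against 16.8, 7.20, 3.61 and 50.7 CPM on day 0 (log2 fold change -3.996 ± 0.92, SE, edgeR adjusted p = 0.00310; -3.01, adjusted p = 0.0511, without mouse 4). Snai1 fell by 1.24 on the log2 scale (edgeR adjusted p = 0.00787; -1.21, adjusted p = 0.0664, without mouse 2), and Lgals1, galectin 1, rose with 1090, 1244, 1459 and 1285 CPM on day 3, against 368, 619, 220.3 and 693 CPM on day 0 (log2 fold change 1.42 ± 0.34, SE, edgeR adjusted p = 0.00405). Vim, vimentin, had 190.5, 272, 219 and 142 CPM on day 3, against 190.1, 267, 99.95 and 276 CPM on day 0 and did not pass (log2 fold change -0.02, adjusted p = 0.984). Its value turned on a few cells: without the 1 cell of day 3 and 21 cells of day 0 that resembled 4T1 (a Vim UMI was in 93.8% of thinned 4T1 cells of the day 3 pool and 96.9% of those of the day 0 pool), the log2 fold change was 1.17 (adjusted p = 0.0668; 1.26 and 0.0153 with the block), and with each cell thinned to 5000 UMIs it was 1.10 (adjusted p = 0.0439). The cells left out were picked for likeness to a profile high in Vim, and nearly all were of day 0. A higher Vim value without them is thus partly built into the choice. The share of thinned cells with a Vim UMI was 21.1% ± 3.33 on day 3 and 16.9% ± 2.97 on day 0 (SD, n = 4, exact permutation p = 0.143, 0.367 adjusted over 11 markers). In 137 cells with macrophage markers it was 64.2%. The repressor genes Zeb1 and Twist1 had fitted log2 changes of 0.65 (adjusted p = 0.443) and -0.14 (adjusted p = 0.936).

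Of 19 epithelial junction genes other than Epcam 4 were higher and 1, Cdh1, was lower (5 and 5 with the block). The share higher was near the 19.5% of all genes that rose, and the share lower was below the 18.1% that fell. The counts were 1 and 0 without mouse 1, 2 and 0 without mouse 2, 2 and 2 without mouse 3, and 3 and 2 without mouse 4. Cdh1, E-cadherin, had 68.8, 60.6, 47.8 and 89.0 CPM on day 3, against 108, 128, 79.6 and 187 CPM on day 0, lower in all 4 mice with overlap between mice (log2 fold change -0.91 ± 0.28, SE, edgeR adjusted p = 0.0189). The call was lost without mouse 1 (-0.996, adjusted p = 0.0641) and mouse 2 (-0.86, adjusted p = 0.119), and the share of thinned cells with a Cdh1 UMI was 26.8% ± 9.21 on day 3 and 42.0% ± 13.2 on day 0 (SD, n = 4, exact permutation p = 0.143, 0.367 adjusted over 11 markers). Epcam had 1470, 1440, 1326 and 1815 CPM on day 3, against 2026, 2285, 2079 and 2338 CPM on day 0; the cell rule used it, so no test is read from it. Tjp3, a zonula occludens protein, had 17.1, 6.34, 12.8 and 4.90 CPM on day 3, against 2.12, 2.63, 1.28 and 3.09 CPM on day 0, with no overlap (log2 fold change 2.11 ± 0.39, SE, edgeR adjusted p = 6.45e-04), and Dsp, desmoplakin, rose by 1.03 (edgeR adjusted p = 0.0142) and was not called without mouse 1 (0.99, adjusted p = 0.0864) or mouse 2 (0.84, adjusted p = 0.137). Of 10 S100 calcium-binding protein genes 5 rose and 0 fell (50%). S100a6 had 11780, 16500, 19810 and 9902 CPM on day 3, against 5019, 5144, 6277 and 3449 CPM on day 0, one of the most abundant transcripts among those described, with no overlap (log2 fold change 1.54 ± 0.24, SE, edgeR adjusted p = 1.77e-04). S100a11 and S100a13 rose by 0.89 and 1.27, and S100a4 was at -0.32 (adjusted p = 0.523).

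Developmental pathways showed single members that moved. Wnt10a, a Wnt ligand, had 28.2, 202, 106 and 108 CPM on day 3, against 7.33, 15.9, 11.2 and 8.05 CPM on day 0, with no overlap and mouse 2 highest on both days (log2 fold change 3.41 ± 0.54, SE, edgeR adjusted p = 1.88e-04). The Wnt list had 2 members higher and 3 lower of 13 (2 and 5 with the block, and 1 lower without mouse 1, mouse 2 or mouse 3). The shares were 15.4% and 23.1%, beside 19.5% and 18.1% of all genes. The ubiquitin ligase gene Znrf3, a feedback inhibitor, fell by 1.21 on the log2 scale. Of the Notch list 3 rose (1 without mouse 2) and 3 fell of 11, 27.3% each, beside the same 19.5% and 18.1% of all genes. Notch3 had 11.8, 12.5, 7.77 and 5.43 CPM on day 3, against 2.02, 1.66, 0.932 and 3.09 CPM on day 0 (log2 fold change 2.25 ± 0.43, SE, edgeR adjusted p = 7.81e-04), and Notch2 had 27.6, 28.7, 19.7 and 21.6 CPM on day 3, against 52.8, 61.6, 58.0 and 52.3 CPM on day 0 (log2 fold change -1.21 ± 0.14, SE, edgeR adjusted p = 8.40e-06), so these receptors moved apart without overlap. The ligand gene Jag2 rose by 1.29, not called without mouse 1 (1.31, adjusted p = 0.0719) or mouse 2 (1.38, adjusted p = 0.0664), and Jag1 fell by 1.44 on the log2 scale, not called without mouse 1 (-1.29, adjusted p = 0.0619). In 4T1 cells Notch2 was at -1.02 and Notch3 at 0.05. Notch3 had 0.293 and 0.124 CPM in the 4T1 sums of the day 3 and day 0 pools, too little to show a difference. The target Hes1 fell by 0.90 in Matrigel and was at -1.52 in 4T1 cells, so its difference changed sign to 0.62 once that of 4T1 was subtracted. Hes1 was not called without mouse 2 (-0.62, adjusted p = 0.0823). Squamous genes had 1 member higher and 2 lower of 13 (0 lower without mouse 1). The shares, 7.69% and 15.4%, were below those of all genes.

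The largest single changes outside the lists included genes of other cell types and histones. Dcn, decorin, a fibroblast proteoglycan, had 328, 160, 8 and 5 UMIs on day 3, against 0, 1, 5 and 0 UMIs on day 0. Most of the signal came from mice 1 and 2, and the log2 fold change was 8.08 (edgeR adjusted p = 0.00519). The call was lost without mouse 1 (5.31, adjusted p = 0.0695), and without mouse 3 the value was 10.33. The 10 fibroblast markers summed to 11.8 to 199 CPM on day 3 and 5.57 to 22.8 CPM on day 0, with mouse 1 highest on day 3, Dcn and Pdgfrb called higher of 6 tested and Lum at 0 on day 0. Igkc, the immunoglobulin kappa constant region, had 0, 0.186, 0 and 0.199 CPM on day 3, against 4.78, 4.29, 901 and 7.51 CPM on day 0, almost all of it in mouse 3 on day 0 (log2 fold change -10.49, edgeR adjusted p = 0.00135; -4.93 without mouse 3 and -11.61 without mouse 4). The 6 B and plasma cell markers summed to 0.066 to 0.536 CPM on day 3 and 1.18 to 51.4 CPM on day 0, highest in mouse 3, with Ms4a1 and Mzb1 at 0 on day 3. Hp, haptoglobin, had 275, 38.0, 23.3 and 0.199 CPM on day 3, against 0.106, 0.277, 1.75 and 0.134 CPM on day 0, with overlap through mouse 4 on day 3 (log2 fold change 7.09 ± 1.55, SE, edgeR adjusted p = 0.00217; 4.74 without mouse 1 and 9.09 without mouse 3). Of the other cell types, neutrophil markers summed to 4.60 to 635 CPM on day 3 and 17.1 to 151 CPM on day 0 and T and NK cell markers to 3.93 to 81.2 CPM on day 3 and 2.62 to 37.4 CPM on day 0, with 0 members called. Dendritic cell markers summed to 0.983 to 2.56 CPM on day 3 and 5.11 to 23.0 CPM on day 0, with Ccr7 and Zbtb46 called lower. Endothelial (6.44 to 13.4 against 3.55 to 7.08 CPM), pericyte (16.5 to 28.7 against 9.21 to 35.6 CPM) and adipocyte markers (0.592 to 35.4 against 0.590 to 4.89 CPM) were low, with Egfl7, Notch3, Pdgfrb and Fabp4 called higher and Cdh5 and Plin1 at 0 on both days. The part of such cells or their free RNA in these values was not tested, and without the cells that carried their markers 2440 genes were higher and 2296 lower.

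Other leading genes were a synuclein, a DNA repair gene, histones and an endothelin. Sncg, gamma-synuclein, had 90.5, 150, 93.7 and 62.0 CPM on day 3, against 5.63, 0.415, 0.233 and 7.78 CPM on day 0, with no overlap (log2 fold change 4.81 ± 0.71, SE, edgeR adjusted p = 9.59e-05; 4.17 without mouse 2 and 5.63 without mouse 4) and a 4T1 change of 0.30. Mgmt, which repairs alkylated guanine, had 27.1, 12.9, 20.1 and 34.9 CPM on day 3, against 1.81, 0.277, 0.233 and 1.34 CPM on day 0 (log2 fold change 4.65 ± 0.69, SE, edgeR adjusted p = 9.96e-05), with 0.08 in 4T1 cells. The histone genes Hist1h2ap (5.67; 4T1 1.97), Hist2h2aa1 (4.37; 4T1 0.71) and Hist1h2ae (4.08; 4T1 1.08) were all higher, and near-identical copies make their counts uncertain. Edn2, endothelin 2, had 0, 6.34, 1.37 and 0.397 CPM on day 3, against 31.6, 11.1, 51.6 and 25.0 CPM on day 0, with no overlap (log2 fold change -3.81 ± 0.86, SE, edgeR adjusted p = 0.00267; -5.84 without mouse 2) and 0.03 in 4T1 cells. In the 4T1 sums of the day 3 and day 0 pools Sncg had 1.32 and 0.124 CPM, Mgmt 0.293 and 0, and Edn2 0.220 and 0.124. Those levels are far below the 5 CPM added, so the 4T1 values do not show whether these genes differed between the pools. Sprr1a, a cornified envelope protein, had 14.1, 18.1, 0.686 and 0.132 CPM on day 3, against 508, 45.4, 3.84 and 18.9 CPM on day 0, spread over the mice on both days (log2 fold change -4.31 ± 1.46, SE, edgeR adjusted p = 0.0299), and its call was lost without mouse 1 (-1.90, adjusted p = 0.351), mouse 2 (-6.03, 0.0533) or mouse 3 (-4.35, 0.0524). The pseudogene Olfr1369-ps1 had 2.35, 2.42, 1.14 and 3.18 CPM on day 3, against 15.4, 30.2, 50.2 and 84.5 CPM on day 0 (log2 fold change -4.21 ± 0.60, SE, edgeR adjusted p = 6.86e-05).

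Collagen I cultures of the same tumours were in the same 2 pools, so a difference between the matrices in how much a gene changed is free of what all cells of a pool share. Over the same days 1154 genes rose (9.29%) and 999 fell (8.04%) in collagen (with the block 2529 and 2211, 20.4% and 17.8%, together 38.2%). A larger count in Matrigel is no test of a difference. The test of the difference itself called 0 of 12424 genes without the block (1266 at unadjusted p under 0.05, smallest adjusted p 0.0627), 82 larger and 46 smaller with DESeq2, and 308 (2.48%) and 287 (2.31%) once the block was added, together 4.79%. Those block calls rest on all 4 mice: without mouse 1 they were 6 and 3, without mouse 3 they were 1 and 2, without mouse 2 they were 75 and 94, and without mouse 4 they were 65 and 62. The changes and differences below are from the block fit and are given with that limit. A difference in change does not say on which day the matrices differed. Levels in Matrigel and collagen were not tested against each other.

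Antigen presentation had the largest share of members with a different change in the 2 matrices. Of 12 members 7 changed more in Matrigel than in collagen and 0 changed less, where 2.48% of all genes did. Psmb8 changed by 1.94 in Matrigel and 0.48 in collagen, a difference of 1.46 ± 0.16 (SE, edgeR block adjusted p = 0.00249). For Psmb9 the difference was 1.56 ± 0.23 (adjusted p = 0.00731), for Psmb10 1.35 ± 0.24 (adjusted p = 0.0123) and for Psme1 0.91 ± 0.14 (adjusted p = 0.00779). In the interferon response list 6 members, among them Isg15, Oasl2, Zbp1, Bst2 and Ifitm3, had a larger value in Matrigel and 0 a smaller one. Of these Isg15 and Zbp1 rose in Matrigel, by 0.45 (adjusted p = 0.0398) and 0.89 (adjusted p = 0.00628), and fell in collagen by 0.87 and 0.69, while Oasl2 and Bst2 fell in collagen by 1.51 and 1.33 on the log2 scale. Ifitm3 changed by 2.30 in Matrigel and 0.30 in collagen, a difference of 2.00 ± 0.34 (adjusted p = 0.0100). Mean CPM of Ifitm3 was 203 in Matrigel and 808.5 in collagen on day 0, and 1066 and 984.8 on day 3.

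**Figure D4:**
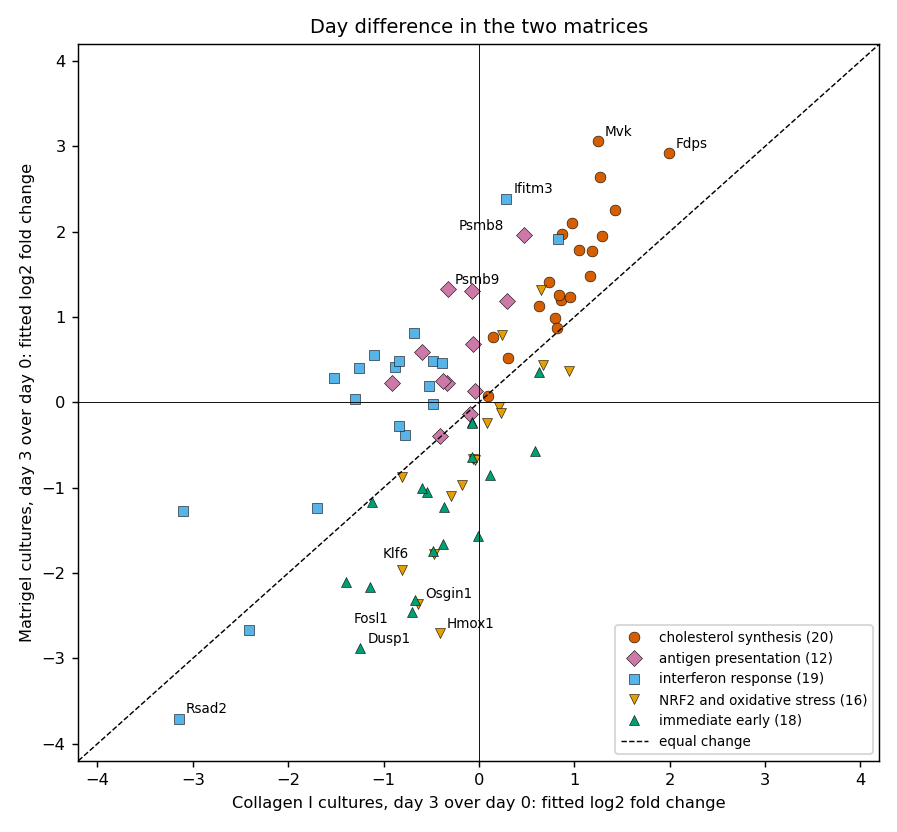
Fitted log2 fold change of day 3 over day 0 in Matrigel cultures (vertical axis) against the same in collagen I cultures (horizontal axis) for members of 5 lists, 4 mice a group, both from the fit without the block. Points above the dashed line changed more toward day 3 in Matrigel, as Psmb8 did (1.96 against 0.47), and points below it less, as Hmox1 did (-2.70 against -0.41).

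Genes of the NRF2 and immediate early lists lay on the other side. Of the 16 NRF2 genes 7 had a lower value in Matrigel than in collagen and 1, Mt1, a higher one. Hmox1 changed by -2.78 in Matrigel and -0.50 in collagen, a difference of -2.28 ± 0.48 (SE, edgeR block adjusted p = 0.0212). Osgin1 differed by -1.78 ± 0.29 (adjusted p = 0.00901) and Sqstm1 by -1.21 ± 0.21 (adjusted p = 0.0115). Mean CPM of Hmox1 in Matrigel and collagen was 1041 and 126.9 on day 0 and 159 and 95.2 on day 3, so its levels were farther apart on day 0. Of 18 immediate early genes 6 had a lower value in Matrigel, among them Fosl1 by -1.76 ± 0.29 (adjusted p = 0.00992) and Dusp1 by -1.64 ± 0.34 (adjusted p = 0.0201). Of the other stress lists, the ATF4 list had 0 members with a called difference of 15, heat shock chaperones had 0 larger and 1 smaller of 15, and the unfolded protein response had 3 larger and 1 smaller of 16. Of the 20 cholesterol genes 4 had a larger rise in Matrigel, Mvk by 1.78 ± 0.29 (adjusted p = 0.00877), Mvd by 1.32 ± 0.27 (adjusted p = 0.0193), Fdps by 0.90 ± 0.23 (adjusted p = 0.0410) and Stard4. In collagen 17 of them rose as well (15 without the block), so the rise was in both matrices. Of 20 mitosis genes 1, Ccnb2, rose in collagen (0.82, adjusted p = 0.00546), and 0 did without the block. The difference between the matrices was called for the same gene alone (1.55 ± 0.29, adjusted p = 0.0131). Fn1 fell in Matrigel and had a fitted log2 change of 0.54 in collagen (adjusted p = 0.133), a difference of -1.74 ± 0.39 (adjusted p = 0.0251). Prlr and Elf5 rose in Matrigel and were at 0.23 and -0.16 in collagen, with differences of 3.03 ± 0.76 (adjusted p = 0.0386) and 3.44 ± 0.77 (adjusted p = 0.0259). Mean CPM of Prlr in Matrigel and collagen was 3.16 and 4.87 on day 0 and 41.6 and 5.79 on day 3, farther apart on day 3.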

How the data were processed

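Tumour cells of 4 mice in Matrigel or collagen I and 4T1 cells were barcoded by condition with MULTI-seq, pooled by day and captured with 10x 3′ version 2 chemistry, per the labels' protocols. Cell Ranger 3.0.2, Scanpy 1.4.4 and the build GRCm38 (mm10) are listed in the submitters' processing notes. The deposited matrix holds raw UMI counts of 20605 genes in 7620 cells, and all of its 39668312 entries were whole. The annotation gives each cell's total counts, matched by the matrix in 7620 of 7620 cells, and its mitochondrial fraction, deposited by the authors as percent_mito with a highest value of 9.994% once scaled. A cell filter was thus applied before deposit, and no step of doublet removal was added here beyond the annotation's assignment of each cell to 1 mouse and matrix.

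Kept cells were summed per mouse, matrix and day into 16 sums. edgeR 4.0.16 in R 4.3.3 was fitted to these sums with TMM scaling, its default filter on low counts and 4 groups, and p-values were adjusted over the 12424 genes tested. The difference between Matrigel and collagen changes came from the same fit. DESeq2 1.42.0 was an alternative. The same 4 mice stand behind all groups, so the mouse pairs the sums: deviations of the same mouse on the 2 days correlated at 0.225 to 0.602 (median 0.342), against a median of -0.105 between other mice. The fit without the mouse as a block is the main one and the block is given where it changes a call or a count. Calls and counts given for a left-out mouse are from the fit without the block unless the block is named. That fit ignores the pairing. All 12 pairs of same-group Matrigel sums differed by more than counting noise (chi-square over degrees of freedom, 9.11 to 64.4). Single-cell shares used cells thinned to 5000 UMIs and exact permutation tests over mice. Sums over cell type markers are CPM without TMM scaling. In 4T1 cells, log2 is of the ratio of CPM plus 5 of 1 sum per pool.

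The members and gene lists were chosen with earlier results of these data known, so lists are described by counts and medians with no test. The genes named with values were the 12 highest and 12 lowest called log2 fold changes with a group mean of at least 20 CPM and 1 sign in all mice (predicted, mitochondrial and ribosomal protein genes left out), from each list with at least 3 called members the up to 4 lowest in p, and 12 state markers. Other list members with values in the text were chosen after their values were seen, from called members and known members that did not pass. On simulated sums with 12194 genes tested, the test of Matrigel day 3 over day 0 recovered 56 of 100 genes changed 2-fold and 92 of 100 changed 4-fold, with 3 unchanged genes called. Promoters came from the RefSeq table on GRCm38.p6. Gene coordinates came from the GENCODE vM21 annotation, in which 20574 of the gene IDs were found. Alternatives left out each mouse, changed the filters, scaling or tool, thinned cells, or left out cells that resembled 4T1 or carried markers of other cell types. Some genes are not reported here.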

Additional observations from a re-analysis of the deposited data

Results flagged for a closer look

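In 23 of 310 groups of 4 mice checked, 1 mouse stood apart from the other 3, with a gap to its nearest neighbour past 0.829 of the whole range of the group. Chance flags about 1 in 20 groups. On day 3 this was the level of Dcn (0.847), Hp (0.862), Eno1b (0.838), Bloc1s1 (0.856), Sdf2l1 (0.835), Mthfd2 (0.840), Ccne1 (0.853), Tyms (0.860), Oas1a (0.938), Psmb8 (0.874), Psmb9 (0.877), Tnf (0.907), Spry2 (0.859) and Krt8 (0.914). On day 0 it was the level of Hp (0.896), Igkc (0.996), Sprr1a (0.917), Tnfaip3 (0.911), Ets2 (0.838), Notch1 (0.885), Mvk (0.834) and Twist1 (0.843). The share of thinned cells with a Krt8 UMI on day 3 also had 1 such mouse, with a gap of 0.843 of the range. On day 3, mouse 1 was the high one for Dcn, Hp, Psmb8 and Psmb9, mouse 2 for Spry2, mouse 3 for Tnf, and mouse 4 for Mthfd2, Tyms and Sdf2l1, while mouse 2 was the low one for Eno1b, Bloc1s1 and Ccne1 and mouse 4 for Oas1a and Krt8. On day 0, mouse 1 was high for Sprr1a and Mvk, mouse 2 for Ets2 and Twist1, and mouse 3 for Hp, Igkc and Tnfaip3, and mouse 3 was low for Notch1.

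The change between the days differed between Matrigel and collagen, tested as the difference itself with the mouse as a block in edgeR, for 41 of 144 named genes, where 4.79% of all genes tested were called. The difference is the Matrigel log2 fold change less that in collagen. Most named genes were chosen for their Matrigel change, which is part of this difference. A share above that of all genes is thus built into the choice and is no result. It was positive for 16 genes, namely Hist2h2aa1 (1.78), Mt1 (0.63), Ccnb2 (1.55), Ifitm3 (2.00), Psmb8 (1.46), Psme1 (0.91), Psmb10 (1.35), Psmb9 (1.56), Prlr (3.03), Elf5 (3.44), Col4a5 (1.17), Fdps (0.90), Mvk (1.78), Mvd (1.32), Scd1 (1.81) and Ndufb8 (0.48). It was negative for 25 genes, those reported here being Ctgf (-1.59), Plaur (-1.45), Dusp1 (-1.64), Hmox1 (-2.28), Sqstm1 (-1.21), Osgin1 (-1.78), Fosl1 (-1.76), Klf6 (-1.30), Dnajb1 (-0.67), Dnajb9 (-1.01), Plk2 (-0.74), Sfn (-1.22), Postn (-3.56), Fn1 (-1.74), Plau (-1.35), Myl12a (-0.58), Actn1 (-0.61), F3 (-1.01), Smad7 (-0.92), Ets2 (-0.75), Hbegf (-1.55), Errfi1 (-1.03), Vegfa (-1.42) and Myc (-0.80). Without the block 0 genes were called (1266 at unadjusted p under 0.05), and DESeq2 without the block called 82 genes with a positive and 46 with a negative difference. The calls with the block fell to 6 and 3 without mouse 1 and to 1 and 2 without mouse 3.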

How the results depend on the processing

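With the mouse as a block 3399 genes were lower, against 2251 without it, and 3633 when cells that resembled 4T1 were left out as well, while the 3460 genes higher stayed within 1.5 times of 2423. Leaving out each mouse gave 1597 to 2360 genes higher and 1437 to 2414 lower, and thinning each cell to 5000 UMIs gave 1429 lower. For the difference between the matrices, 0 genes were called in either direction without the block, against 82 and 46 with DESeq2, 308 and 287 with the block, 304 and 230 with the block and without cells that resembled 4T1, and 88 and 93 with the block and thinning. Under the block, leaving out mice 1 to 4 gave 6, 75, 1 and 65 genes with a larger value in Matrigel and 3, 94, 2 and 62 with a smaller one. The block alternatives with thinning, with left-out mice and without cells that resembled 4T1 were added after seeing the data. With a pseudocount of 20 CPM, 25 genes higher and 41 lower in Matrigel were past a log2 change of 1 the same way in 4T1 cells, against 57 and 99.

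Of 137 called named genes, 108 kept their call without each mouse and 29 lost it without at least 1 mouse, 22 of them without mouse 1. None changed sign under another filter, scaling, tool or block. Among named genes the block added the calls for Krt8, Trp63 and Snai2 and changed no other call. Subtracting the 4T1 change turned the sign of Krt7 (0.58), Epcam (0.39), Plau (0.43), Actn4 (0.32), Actn1 (0.0892), Dusp6 (0.12), Errfi1 (0.11) and Hes1 (0.62). Vim, at -0.02, was at 0.0168 with no filter on low counts, 0.14 with the block, 0.0477 with the block and Matrigel sums alone, -0.32 to 0.27 when each mouse was left out, 1.10 with thinning (1.146 with the block added), 1.17 without cells that resembled 4T1 (1.26 with the block added), and 0.16, 0.17 and 0.43 with the block without mice 1, 2 and 4. Twist1, at -0.14, was at -0.47 to 0.34 when each mouse was left out, 0.0412 with the block and without cells that resembled 4T1, and 0.0207 and 0.16 with the block without mice 2 and 4. The cause of these turns was not tested.

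The difference in the share of thinned cells with a Krt5 UMI was 0.246 percentage points and ran from -1.035 to 1.578 when each mouse was left out. With at least 2 UMIs required, the differences were -4.67 for Krt8, -0.0145 for Zeb1 and 0.225 for Twist1, and with no thinning 2.88 for Cdh1 and 4.56 for Twist1, each of opposite sign to the thinned value. Depth limits these shares, since 1 UMI in 5000 is near the level of many markers.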
